A study of Mus musculus with 12 samples.

Results

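mmu-miR-155, mmu-miR-146a and mmu-miR-146b (below without the prefix for mouse) were followed as 3 microRNAs linked to inflammation, out of 611 mouse microRNAs on the array. They were chosen by name, as the mature strands of these hairpins, and not by any measured value. All 3 were among the 157 microRNAs that were tested, because each was detected on every array of at least 1 group. The samples were cells of 3T3-L1, a line of mouse fibroblasts that become fat cells when induced. Single-colour arrays were hybridised with 0.5 ug of total RNA from each of 12 samples, 3 in each of 4 groups. Lithium plus MDI cells received 25 mM lithium chloride and the adipogenic mixture MDI. Lithium cells received 25 mM lithium chloride without MDI. MDI cells received the phosphodiesterase inhibitor IBMX, dexamethasone and insulin for 3 days, insulin without the other agents for 2 days and plain medium for 2 days, and were taken at day 7. Preadipocytes were the undifferentiated cells that served as the control. By the submitters' design MDI represents reduced WNT signalling and lithium, an inhibitor of the kinase GSK3, raised WNT signalling.

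All groups came from 1 cell line. The labels give an end day for MDI cells and none for the other groups, so that time in culture and treatment cannot be told apart. They also do not state whether replicates were grown as independent cultures. The p-values therefore cover the spread between the 3 samples within groups, which may be technical. Unless stated otherwise, that spread was estimated over all 4 groups together for every comparison.

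MicroRNAs guide repressor complexes to messenger RNAs that match their seed, the bases near the 5′ end. miR-155 is cut from the transcript of the gene known as BIC or Mir155hg, which NF-kB and AP-1 switch on in activated immune cells, and it has been described as an inhibitor of fat cell formation. miR-146a is itself induced by NF-kB and represses Irak1 and Traf6, components of Toll-like and interleukin-1 receptor signalling, so it is known as a negative feedback on that pathway. miR-146b is made from another chromosome and has been described as promoting fat cell formation.

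The mature sequences, shown because a shared seed sets 2 of the members apart from the other one, came from RefSeq on build GRCm38.p6, where all 3 names were matched. The seed, bases 2 to 8, is in capitals.
miR-155: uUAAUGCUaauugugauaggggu
miR-146a: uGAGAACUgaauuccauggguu
miR-146b: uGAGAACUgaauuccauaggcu
miR-155 has 23 bases and lies on the plus strand at chr16:84714143-84714165. miR-146a has 22 bases and lies on the minus strand at chr11:43374435-43374456. miR-146b has 22 bases and lies on the plus strand at chr19:46342790-46342811. miR-146a and miR-146b have the same base at 20 of 22 positions. Counted from the 5′ end, with the base of miR-146a first, they differ by G18A and U21C, both outside the seed. No other mature mouse sequence in the RefSeq table used here has the seed of miR-155, and the seed of miR-146a and miR-146b is held by these 2 alone. Whether the probes of one also bind the other was not tested.

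The values below are normalized log2 signals of the brightest probe of each microRNA, that is the probe's signal divided by the array's 75th percentile over 181 mouse probes detected everywhere, and a value of 0 equals that percentile. Values under a floor of -4.97 were set to it and have no order there. Probes differ in how well they bind, so levels were compared between groups and not between microRNAs. The arrays detected 126 to 178 mouse microRNAs each. Over the tested microRNAs 6 of the 12 arrays correlated better, on average, with another group than with their own. The 3 with the lowest mean r to their own group were preadipocyte array 3, which resembled lithium cells (mean r = 0.957, against 0.939 with its own group), lithium array 1, which resembled MDI cells (0.960 against 0.942), and lithium plus MDI array 3, which resembled preadipocytes (0.965 against 0.924). Lithium plus MDI array 2 came next, at 0.944, and resembled MDI cells (0.966). The 3 are called the arrays that stood apart, and results are also given without them, a choice made after the values were seen. Leaving out arrays picked for low agreement with their own group narrows the spread within groups. Adjusted p-values without them are therefore description and no support. Slide 1 held the preadipocyte arrays and MDI array 1, and slide 2 held all others. No slide held both lithium-treated cells and preadipocytes. MDI was the only group on both slides. Fits with slide as a block thus take the slide term from MDI array 1 against MDI arrays 2 and 3.

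All 5 microRNAs listed as markers of fibroblasts and mesenchyme, the labelled cell type, were detected. Of these, miR-145 was detected on only 8 of the 12 arrays and ran from the floor to -3.75. All 6 blood and macrophage markers, miR-142-3p and miR-223 among them, were detected on 0 of the 12 arrays. The array carries 22 markers of other cell types, and 2 of these were detected at all. They were the epithelial miR-205, on 3 arrays, and the neural miR-128, on 7 arrays. Every sample is a bulk extract, in which fewer cells of a type and less RNA per cell cannot be told apart.

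miR-155, the immune-activation microRNA, was detected on all 12 arrays and was lower in lithium cells than in preadipocytes. It stood at -0.72, -0.71 and -1.32 in lithium plus MDI cells, in array order. It stood at -1.87, -2.18 and -1.40 in lithium cells. It stood at -1.49, -1.53 and -1.29 in MDI cells and at -0.15, 0.30 and -1.34 in preadipocytes. Preadipocyte array 3 lay far under the other 2 of its group, at the level of the MDI arrays. On this probe all lithium values lay under all preadipocyte values, although lithium array 3 and preadipocyte array 3 differed by little. The group means were -0.92 ± 0.35 in lithium plus MDI cells, -1.82 ± 0.39 in lithium cells, -1.44 ± 0.13 in MDI cells and -0.40 ± 0.85 in preadipocytes (SD, n = 3 each).

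The order of the group means was thus lithium, MDI, lithium plus MDI and preadipocytes, from low to high. Neighbours in that order overlapped for lithium and MDI, for MDI and lithium plus MDI, and for lithium plus MDI and preadipocytes. Before scaling, the background-subtracted signals of the same probe were 161, 243 and 191 in lithium plus MDI cells, 86.6, 90.6 and 157 in lithium cells, 94.4, 132 and 140 in MDI cells and 454, 707 and 308 in preadipocytes. The preadipocyte arrays were brighter as a whole. Their 75th percentiles ran from 503 to 780, against 265 to 477 in lithium plus MDI, 316 to 414 in lithium and 264 to 382 in MDI arrays.

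**Figure D1:**
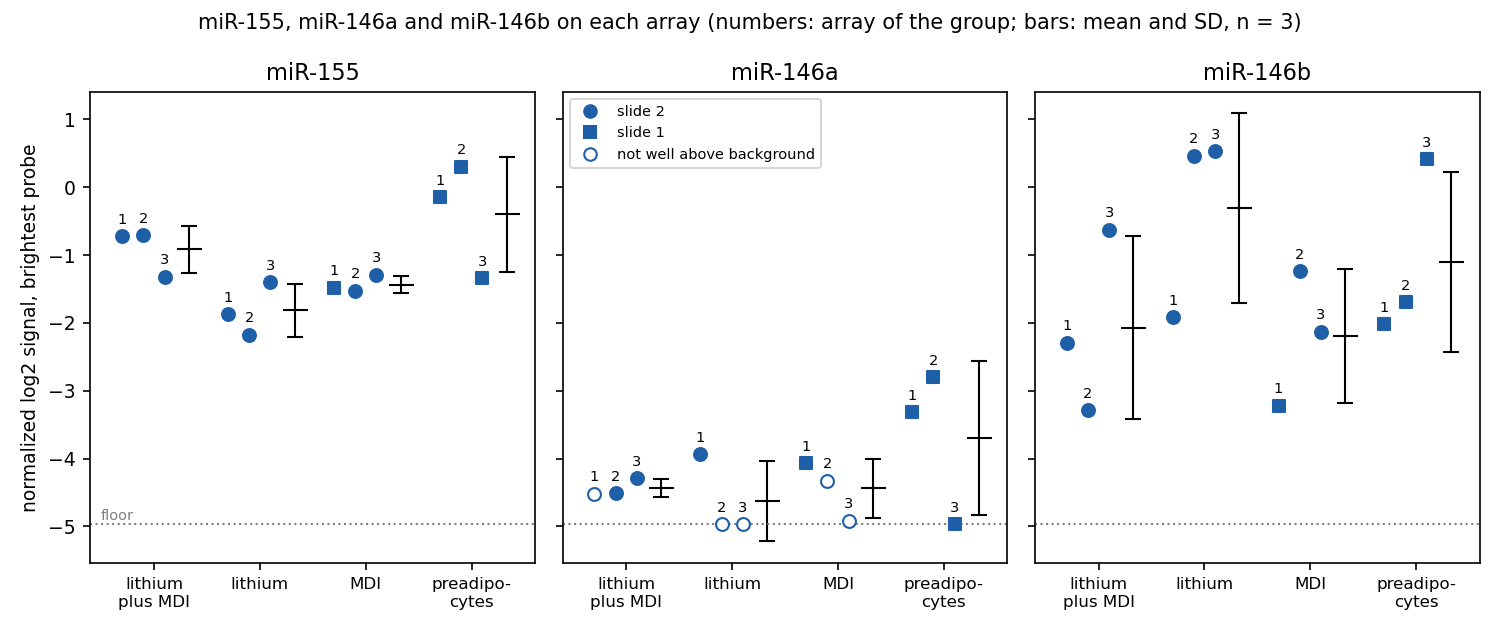
Normalized log2 signal of the brightest probe (y axis) for miR-155, miR-146a and miR-146b on each of the 12 arrays, by group (x axis), with the group mean and SD (n = 3) as bars beside the points. Squares are arrays of slide 1 and circles arrays of slide 2, open symbols were not well above background, and the dotted line is the floor at -4.97. On this probe miR-155 in lithium cells lies under all preadipocyte arrays, miR-146a lies near the floor outside preadipocyte arrays 1 and 2, and miR-146b is high on preadipocyte array 3, lithium arrays 2 and 3 and lithium plus MDI array 3.

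A second, dimmer probe for miR-155 differed in which groups overlapped. It read -2.68, -2.74 and -2.91 in lithium plus MDI cells, -3.62, -3.80 and -2.87 in lithium cells, -3.42, -3.42 and -3.34 in MDI cells and -2.02, -1.87 and -2.89 in preadipocytes. On this probe lithium array 3 lay just above preadipocyte array 3 and lithium plus MDI array 3, so lithium cells overlapped both those groups. The highest MDI value, -3.34, lay under the lowest of preadipocytes, -2.89. How many tested microRNAs show such a gap on a dimmer probe was not counted. The brighter probe exceeded it by 1.47 to 2.17 log2 units, with a median of 1.88, and their values correlated with r = 0.954 over the 12 arrays, which share both the RNA and the scaling. Spots of the brighter probe varied by a median coefficient of variation of 5.56% within an array, which covers neither labelling nor hybridisation.

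Lithium against preadipocytes asks what lithium chloride does to uninduced cells. miR-155 fell by 1.42 on the log2 scale (SE 0.38, 95% confidence interval -2.24 to -0.60), which is 2.67-fold, with a limma adjusted p of 0.0382. It was the only one of the 3 members called, while 6.37% of all tested microRNAs were called in this comparison. Its place was the 10th by p among 10 called, so it sat at the edge of the threshold. On the brighter probe the groups did not overlap, with lithium lower, as was the case for 12.7% of tested microRNAs, and on the dimmer probe they overlapped. The median difference of all tested microRNAs was -0.07.

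The call for miR-155 depended on single arrays. With slide as a block the difference was -1.49 and the limma adjusted p was 0.363, and since no slide holds both groups there is no within-slide value. When 1 array was left out at a time, the call held in 4 of 12 fits. It held without preadipocyte array 3 (-1.89, limma adjusted p = 0.00816), lithium array 1 (-1.39, 0.0472), lithium plus MDI array 2 (-1.42, 0.0498) and lithium plus MDI array 3 (-1.42, 0.0352). It was lost without preadipocyte array 1 (-1.29, 0.188), preadipocyte array 2 (-1.07, 0.235), lithium array 2 (-1.24, 0.205) and lithium array 3 (-1.63, 0.0632). It was also lost without MDI arrays 1 to 3 (-1.42, 0.0529 to 0.0572) and without lithium plus MDI array 1 (-1.42, 0.0560). Without the 3 arrays that stood apart, the difference was -1.86 with a limma adjusted p of 0.00116, while 83 tested microRNAs then passed the threshold, against 10 with all arrays. The SE was then 0.28. The way these arrays were picked narrows the spread, so this p adds no support.

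**Figure D2:**
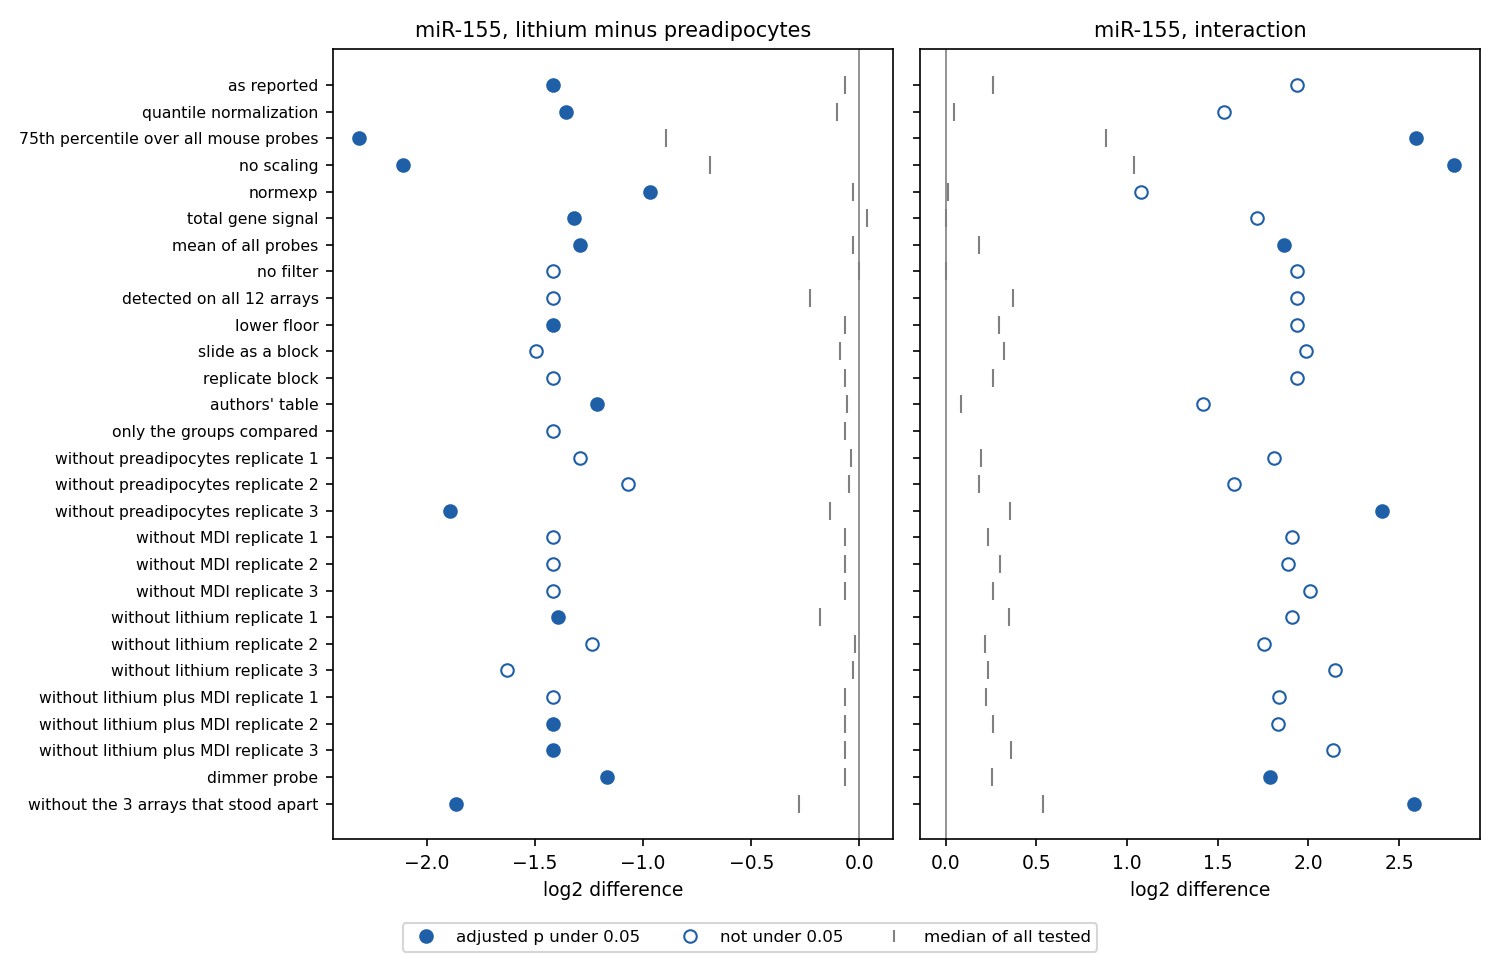
Log2 difference of miR-155 (x axis) in lithium minus preadipocytes (left) and in the interaction (right) under each processing alternative and with each array left out (y axis). Filled circles have a limma adjusted p under 0.05, open circles do not, and grey ticks are the median of all tested microRNAs. The lithium difference stays between -2.32 and -0.97 and lies below the median of all tested microRNAs under every setting drawn, and the interaction stays between 1.08 and 2.81.

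MDI against preadipocytes asks how the level changes with differentiation. miR-155 differed by -1.04 (95% confidence interval -1.86 to -0.22), with an unadjusted p of 0.0168 and a limma adjusted p of 0.155. No member was called, and 3.18% of tested microRNAs were. On the brighter probe the groups overlapped through preadipocyte array 3. Without that array, the lowest of its group, the difference was -1.51 with a limma adjusted p of 0.0231. This was the only fit of 12 with 1 array left out that passed. The limma adjusted p of the others reached 0.419. Within slide 1, MDI array 1 at -1.49 lay under all 3 preadipocyte arrays. With slide as a block the difference was -1.09 and the limma adjusted p was 0.336.

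Lithium plus MDI against preadipocytes gave a difference for miR-155 of -0.52 (95% confidence interval -1.34 to 0.30, limma adjusted p = 0.453). No member was called here, and 1.27% of tested microRNAs were. The interval still holds a fall of more than the size seen with MDI, so a like level in these groups was not shown.

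Lithium plus MDI against lithium asks what the inducing mixture does under lithium. miR-155 was 1.86-fold apart, a difference of 0.90 (95% confidence interval 0.08 to 1.72), with an unadjusted p of 0.0340 and a limma adjusted p of 0.144. On the brighter probe all lithium plus MDI values lay above all lithium values, as they did for 26.1% of tested microRNAs, and on the dimmer probe the groups overlapped. In this comparison 0.0% of tested microRNAs, and thus no member, were called, while 48 were under an unadjusted p of 0.05. The median difference of all tested microRNAs was 0.39. On slide 2 alone, which holds all 6 of these arrays, the difference was 0.90 with a limma adjusted p of 0.0728. Without preadipocyte array 3, which enters through the shared estimate of spread, the limma adjusted p was 0.0481. Of the 12 fits with 1 array left out only this 1 passed, and the limma adjusted p of the others reached 0.381.

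Lithium plus MDI against MDI asks what lithium adds to induced cells. The difference for miR-155 was 0.52 (95% confidence interval -0.30 to 1.34, limma adjusted p = 0.783), and 0.49 on slide 2 alone (limma adjusted p = 0.533). Again 0.0% of tested microRNAs were called, and 6 had an unadjusted p under 0.05.

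The interaction, which sets the response to MDI under lithium (lithium plus MDI minus lithium) minus that in its absence (MDI minus preadipocytes), was 1.94 for miR-155 (SE 0.54, 95% confidence interval 0.78 to 3.09). Its unadjusted p was 0.00312, the 7th smallest of 157, and its limma adjusted p was 0.0621, so it missed the threshold. The MDI difference was 0.90 with lithium and -1.04 without it. For the interaction 0.0% of tested microRNAs were called, with 35 at an unadjusted p under 0.05 and a smallest adjusted p of 0.0612. Without preadipocyte array 3, the lowest of its group, the interaction was 2.41 with a limma adjusted p of 0.00498. Again only this fit of the 12 with 1 array left out passed. The limma adjusted p of the others reached 0.192. When the 3 arrays that stood apart were left out, the interaction was 2.58 with a limma adjusted p of 0.00167. Then 69 tested microRNAs passed, against 0 with all arrays, and the way these arrays were picked narrows the spread. With slide as a block it was 1.99 and the limma adjusted p was 0.224.

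**Figure D3:**
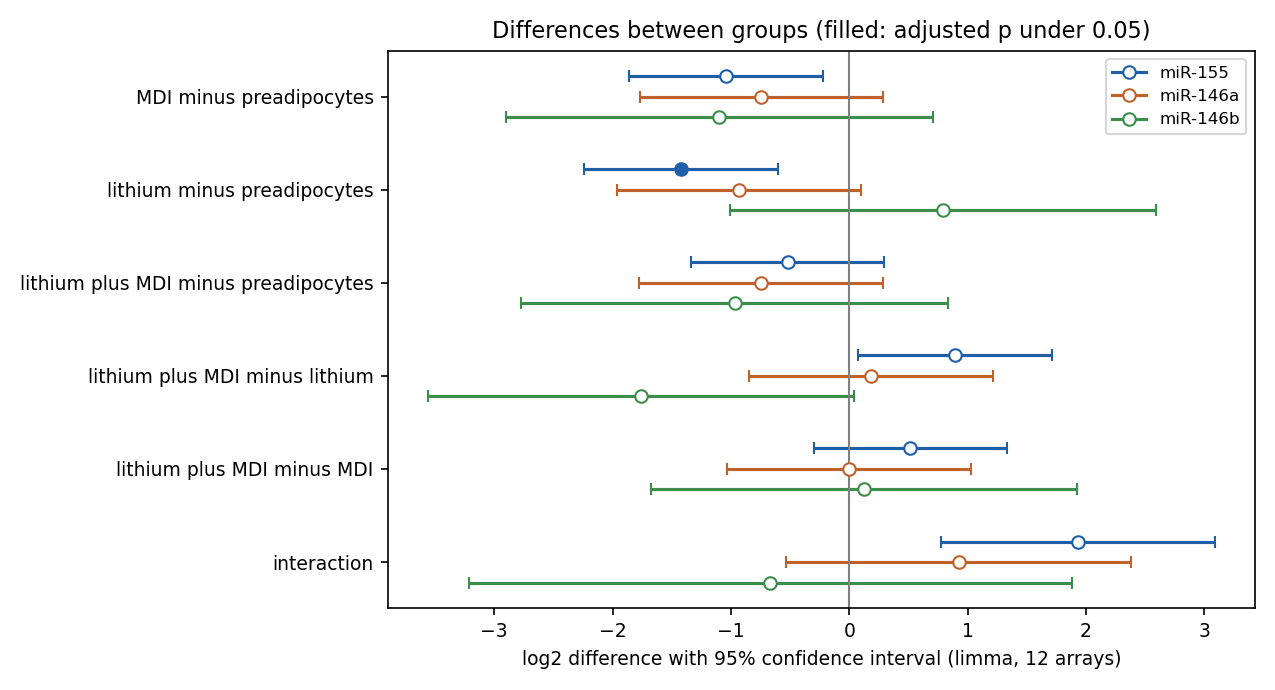
Log2 differences (x axis) of miR-155, miR-146a and miR-146b in the 5 comparisons between groups and in the interaction (y axis), with 95% confidence intervals from limma over 12 arrays. The filled circle, miR-155 in lithium minus preadipocytes at -1.42, is the 1 value with an adjusted p under 0.05, and the intervals of miR-146b are the widest.

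miR-146a, the NF-kB feedback microRNA, was near the detection limit. It was well above background on 7 of 12 arrays, namely 2 of lithium plus MDI, 1 of lithium, 1 of MDI and all 3 of preadipocytes. It was tested because of the preadipocyte arrays alone, so a lower value elsewhere was partly set by that filter. Its normalized signals were -4.52, -4.51 and -4.29 in lithium plus MDI cells and -3.94, the floor and the floor in lithium cells. They were -4.07, -4.33 and -4.91 in MDI cells and -3.31, -2.80 and the floor in preadipocytes. Preadipocyte arrays 1 and 2 were the 2 highest of the 12, and preadipocyte array 3 was at the floor although its spots were mostly above background.

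Before scaling, the miR-146a signals were 11.6, 17.4 and 24.4 in lithium plus MDI cells, 20.7, 2.87 and 6.49 in lithium cells, 15.8, 19.0 and 11.4 in MDI cells and 50.5, 82.4 and 16.2 in preadipocytes. A second probe for miR-146a was detected on 0 arrays, so nothing on the array checks the first. Within an array the spots of the brighter probe varied by a median of 9.39% and by up to 21.1% where it was detected. The group means were -4.44 ± 0.13 in lithium plus MDI cells, -4.62 ± 0.59 in lithium cells, -4.44 ± 0.43 in MDI cells and -3.70 ± 1.13 in preadipocytes (SD, n = 3 each). All groups overlapped.

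No comparison of miR-146a passed the threshold, and the floor affected the size of its differences. With a lower floor, MDI minus preadipocytes and lithium plus MDI minus preadipocytes were -0.53 and -0.54, lithium minus preadipocytes was -1.15 and lithium plus MDI minus lithium was 0.61. Against preadipocytes it differed by -0.74 in lithium plus MDI cells (95% confidence interval -1.77 to 0.29, limma adjusted p = 0.440). Lithium cells differed by -0.93 (95% confidence interval -1.96 to 0.10, limma adjusted p = 0.252) and MDI cells by -0.74 (95% confidence interval -1.77 to 0.29, limma adjusted p = 0.387). All 3 differences share the preadipocyte arrays. Lithium plus MDI minus lithium was 0.18 (95% confidence interval -0.85 to 1.21), lithium plus MDI minus MDI was near 0 (-1.03 to 1.03), and the interaction was 0.93 (-0.53 to 2.38, limma adjusted p = 0.452).

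The miR-146a values turned on preadipocyte array 3. Without it, lithium minus preadipocytes was -1.56 with a limma adjusted p of 0.0120 and the interaction was 1.56 with a limma adjusted p of 0.0485. In both, leaving out any other single array gave no call. Without all 3 arrays that stood apart, miR-146a differed from preadipocytes by -1.46 in lithium plus MDI, -1.91 in lithium and -1.38 in MDI cells, with limma adjusted p of 0.00611, 0.00116 and 0.00599 in that order. Each of these fits drops the lowest preadipocyte array, and miR-146a was tested through preadipocytes alone. Lower values elsewhere were thus partly set in advance, and these p-values are no support for them. With slide as a block the differences from preadipocytes, in the same order, were -0.19, -0.38 and -0.37, and none passed. Within slide 1, MDI array 1 at -4.07 lay between the preadipocyte arrays.

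miR-146b, which shares its seed with miR-146a, was detected on all 12 arrays and its range within every group exceeded every difference between group means. It stood at -2.29, -3.29 and -0.62 in lithium plus MDI cells, in array order, and at -1.92, 0.46 and 0.53 in lithium cells. It stood at -3.22, -1.24 and -2.13 in MDI cells and at -2.02, -1.70 and 0.41 in preadipocytes. Lithium arrays 2 and 3, preadipocyte array 3 and lithium plus MDI array 3 were the 4 highest. The highest array of a group exceeded its lowest by 3.93-fold to 6.34-fold. Before scaling, the signals were 54.1, 40.6 and 309 in lithium plus MDI cells, 83.8, 565 and 598 in lithium cells, 28.4, 162 and 78.2 in MDI cells and 124, 177 and 1039 in preadipocytes.

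The spots of the miR-146b probe varied by a median of 3.71% within an array, and a second probe, detected on 8 of 12 arrays, followed it with r = 0.995 over those 8, at 2.24 to 2.64 log2 units below. In 3 groups the array farthest from the other 2 was preadipocyte array 3, lithium array 1 and lithium plus MDI array 3, which were the 3 that stood apart over all tested microRNAs. The group means were -2.07 ± 1.35 in lithium plus MDI cells, -0.31 ± 1.39 in lithium cells, -2.20 ± 0.99 in MDI cells and -1.10 ± 1.32 in preadipocytes (SD, n = 3 each). MDI was thus lowest, then lithium plus MDI, preadipocytes and lithium, and all neighbours in that order overlapped.

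No comparison of miR-146b passed the threshold. The widest difference was lithium plus MDI minus lithium, at -1.76 (3.39-fold lower, 95% confidence interval -3.56 to 0.04), with an unadjusted p of 0.0545 and a limma adjusted p of 0.161. On slide 2 alone the limma adjusted p was 0.155. Without lithium array 1 the difference was -2.57 and the limma adjusted p was 0.0491. Leaving out any other single array gave no call. The miR-155 difference in the same comparison had the other sign, at 0.90. Against preadipocytes miR-146b differed by -0.97 in lithium plus MDI cells (95% confidence interval -2.77 to 0.83), by 0.79 in lithium cells (-1.01 to 2.59) and by -1.10 in MDI cells (-2.90 to 0.70), with limma adjusted p of 0.529, 0.582 and 0.448 in that order.

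The sign of the miR-146b difference between lithium cells and preadipocytes depended on the setting. It was -0.74 with slide as a block and -0.10 with scaling over all mouse probes, and neither passed. Under that scaling the median of all tested microRNAs was -0.90. The slide term rested on MDI array 1, the lowest of its group at -3.22. When the 3 arrays that stood apart were left out, lithium minus preadipocytes was 2.35 with a limma adjusted p of 0.00529. Lithium plus MDI minus lithium was then -3.29 with a limma adjusted p of 0.000941. That choice of arrays narrows the spread. Lithium plus MDI minus MDI was 0.13 (95% confidence interval -1.67 to 1.93, limma adjusted p = 0.996), and the interaction was -0.67 (-3.21 to 1.88, limma adjusted p = 0.773). Within slide 1, MDI array 1 at -3.22 lay under all 3 preadipocyte arrays.

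The 12 arrays share the scaling and the RNA quantity but not the slide, which differed between preadipocytes and lithium-treated cells. Over these arrays miR-155 and miR-146a correlated with r = 0.695 (Spearman rho = 0.366). miR-155 and miR-146b had r = -0.393 (rho = -0.427), and miR-146a and miR-146b, which share the seed, had r = -0.426 (rho = -0.416). Preadipocyte arrays 1 and 2 were the 2 highest for both miR-155 and miR-146a.

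Among the tested microRNAs let-7i, a member of the let-7 family of differentiation-linked microRNAs, was most like miR-155, with r = 0.905 (rho = 0.839) over 12 arrays. let-7i is also on the list of inflammation-linked microRNAs described below. Its group means were 1.93 ± 0.07 in lithium plus MDI cells, 1.25 ± 0.29 in lithium cells, 1.51 ± 0.14 in MDI cells and 2.16 ± 0.57 in preadipocytes (SD, n = 3 each), the same order as for miR-155. It was followed by miR-188-5p (r = 0.891), which was at the floor on 4 arrays, and miR-128 (r = 0.849), which was at the floor on 3. For miR-146a the most alike were miR-151-5p (r = 0.883), miR-320 (r = 0.861) and miR-23b (r = 0.829).

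For miR-146b the most alike were let-7c (r = 0.943), miR-99a (r = 0.884) and miR-193b (r = 0.846). let-7c was 0.72, 0.45 and 1.35 in lithium plus MDI cells, 0.74, 1.65 and 1.85 in lithium cells, 0.01, 0.65 and 0.34 in MDI cells and 0.66, 0.85 and 2.07 in preadipocytes. Its 4 highest arrays were the 4 highest of miR-146b. In RefSeq the hairpins of miR-99a, chr16:77598936-77599000, and of let-7c, chr16:77599657-77599750, lie 656 bases apart on build GRCm38.p6, and a second let-7c hairpin lies on chromosome 15. miR-146b itself lies on chromosome 19.

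**Figure D4:**
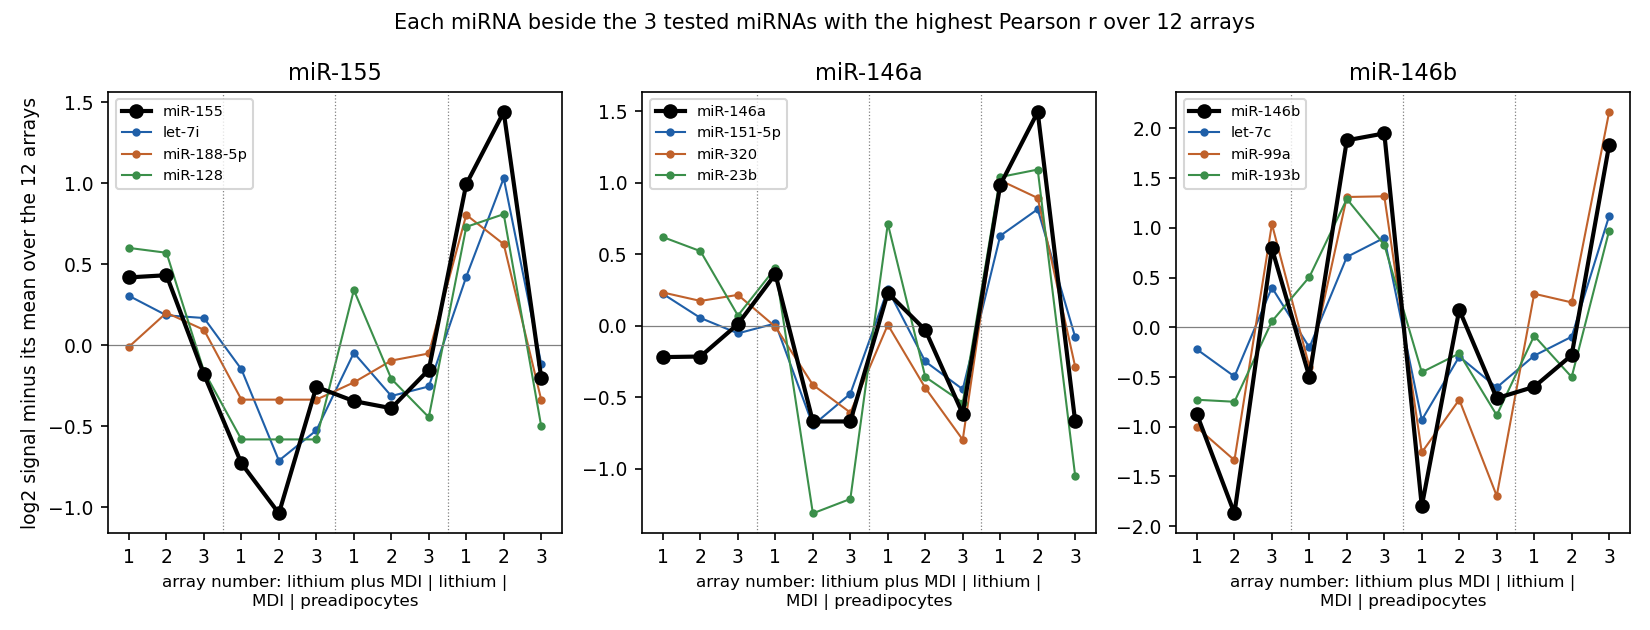
Normalized log2 signal minus its mean over the 12 arrays (y axis) for miR-155, miR-146a and miR-146b (black) and the 3 tested microRNAs with the highest Pearson r to each, array by array in the order lithium plus MDI, lithium, MDI and preadipocytes (x axis, 3 arrays each). let-7i dips with miR-155 in lithium cells, and let-7c peaks with miR-146b on lithium arrays 2 and 3 and on preadipocyte array 3.

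Other microRNAs linked to inflammation were taken as a list of 20, all on the array, of which 14 were tested. The 6 left out, miR-9, miR-132, miR-147, miR-187, miR-203 and miR-223, were detected on no array. In lithium against preadipocytes 1 of 14 was called, against 6.37% of all tested microRNAs. It was miR-181b, a microRNA known to restrain NF-kB signalling in endothelium, at -2.83 ± 0.06 in lithium cells and -1.29 ± 0.59 in preadipocytes (SD, n = 3 each), a fall by 1.54 with a limma adjusted p of 0.0191. In MDI against preadipocytes 1 of 14 was called, against 3.18% of all tested microRNAs. It was miR-181b again, at -3.05 ± 0.45 in MDI cells against the same preadipocyte mean, a fall by 1.76 with a limma adjusted p of 0.0263. Lithium plus MDI cells had -2.18 ± 0.60, a difference of -0.89 (limma adjusted p = 0.244). The miR-181b interaction was 2.41 with a limma adjusted p of 0.0612.

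miR-181b stood at -2.81, -2.89 and -2.78 in lithium cells, at -2.56, -3.14 and -3.46 in MDI cells and at -0.97, -0.93 and -1.97 in preadipocytes, where array 3 was the lowest. With slide as a block neither difference passed (-0.80 for lithium, limma adjusted p = 0.652, and -1.27 for MDI, limma adjusted p = 0.191). The lithium call was lost without preadipocyte array 1 (-1.38, limma adjusted p = 0.112), preadipocyte array 2 (-1.35, 0.103), lithium array 2 (-1.50, 0.0854) or lithium array 3 (-1.56, 0.0708). The MDI call was lost without preadipocyte array 1 (-1.60, limma adjusted p = 0.124), preadipocyte array 2 (-1.58, 0.0928), MDI array 2 (-1.72, 0.0936) or MDI array 3 (-1.56, 0.174). With no filter on dim probes the limma adjusted p was 0.216 for lithium and 0.234 for MDI.

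In the 4 other comparisons 0 of the 14 were called, against 1.27% of all tested microRNAs in lithium plus MDI minus preadipocytes and 0.0% in each of the other 3. The median list difference was -0.47 in lithium minus preadipocytes, with 10 of 14 below 0, where the median of all tested microRNAs was -0.07. It was 0.70 in lithium plus MDI minus lithium, with 12 of 14 above 0, where the median of all was 0.39. The medians were 0.09 in MDI minus preadipocytes (0.10 for all), 0.37 in lithium plus MDI minus preadipocytes (0.30 for all), 0.32 in lithium plus MDI minus MDI (0.18 for all) and 0.51 in the interaction (0.26 for all).

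Among the 2 largest differences of each comparison were also miR-301a, miR-212 and miR-221, none of them called. miR-301a, reported in human cells to raise NF-kB activity, was -1.43 in lithium minus preadipocytes (limma adjusted p = 0.111) and 1.81 in lithium plus MDI minus lithium (0.0728). It was 0.94 in lithium plus MDI minus MDI (0.781) and 2.36 in the interaction (0.0797). miR-212 was 1.11 in lithium plus MDI minus preadipocytes (0.187) and 0.69 in MDI minus preadipocytes (0.320). miR-221 was 1.05 in lithium plus MDI minus lithium (0.0728). In lithium plus MDI minus MDI, miR-181b was 0.87 (0.781).

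The star strand of miR-146b had 4 probes on the array and was detected on 0 of 12 arrays. No mouse probe on the array carried the star name of miR-155 or miR-146a, so those strands were not analysed here.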

How the data were processed

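Each array was scanned in 1 colour (Cy3). The deposited spot intensity is Agilent Feature Extraction's signal after background subtraction, per the file headers, without normalization across arrays. They name version 10.5.1.1, whereas the submitters' processing notes name 9.5.3. The authors also deposited a log2 value table, whose normalization is not given in the sources used here and which served as an alternative.

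From the intensities, outlier spots were left out, spots of a probe averaged, and each array divided by its 75th percentile over the 181 probes detected throughout. A floor lay at the 5th percentile of values well above background, and log2 taken. A probe was detected when most of its spots were well above background, and the brightest probe stood for a microRNA. The 157 microRNAs detected throughout at least 1 group entered limma 3.58.1 (R 4.3.3) as 4 group means over 12 arrays (two-sided, Benjamini-Hochberg over 157, threshold 0.05), after a test on simulated data. Arrays have no counting depth, and their number limits precision: the intervals show it. No spot was saturated. The alternatives are given in the closing section. By deviations from group means, same-numbered samples of lithium plus MDI and preadipocytes had r = 0.159, 0.313 and 0.401. Preadipocyte sample 2 with lithium plus MDI sample 1 had r = 0.328, and 1 with 2 had 0.268. The remaining unlike-numbered pairs of these groups were negative. Pairing by number was thus not shown, and the replicate block changed no call of the members there. Besides the members, named were the 3 tested microRNAs with the highest Pearson r to each, and of the inflammation-linked list those called and the 2 largest differences per comparison. The members and lists were chosen with earlier results of these data known. Figures were drawn with matplotlib 3.10.9.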

Additional observations from a re-analysis of the deposited data

How the results depend on the processing

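miR-155 was lower in lithium cells than in preadipocytes under all alternatives, but its call was lost (-1.42 each) without a filter (limma adjusted p = 0.328), with microRNAs detected on all 12 arrays (0.0684), with the 2 groups alone (0.132), with a replicate block (0.0515) and, at -1.49, with slide as a block (0.363). The first 2 change both how many microRNAs the adjustment covers and the estimate of spread. The others change the spread or degrees of freedom, and slide as a block also the difference. Which of these lost the call was not tested. Of the same-numbered pairs 9 of 18 had r above 0.1, and 6 of 12 samples correlated best with their own number. In 5 of the 6 pairs of groups at least 1 pair of samples missed 0.1, so the numbers were not taken as pairs there; the block changed no other call of the members, and with it 16 tested microRNAs passed in lithium plus MDI minus lithium and 4 in the interaction, against 0 without it.

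Other calls and signs moved, for causes that were not tested. Without scaling, miR-155 was -1.94 in MDI minus preadipocytes and 2.81 in the interaction, miR-146a was -1.31 in both MDI minus preadipocytes and lithium minus preadipocytes, all past the threshold, and the signs turned for miR-146a in lithium plus MDI minus MDI (0.17) and miR-146b in the interaction (0.20). The medians of all tested microRNAs were then -0.70 in MDI minus preadipocytes, -0.69 in lithium minus preadipocytes and 1.04 in the interaction. Scaling over all mouse probes gave -1.85 in MDI minus preadipocytes, -1.57 in lithium plus MDI minus preadipocytes and 2.60 in the interaction for miR-155 and -1.47 in lithium minus preadipocytes for miR-146a, all past the threshold. The medians of all tested microRNAs, in the same order, were then -0.64, -0.65, 0.89 and -0.90. This scaling turned miR-146a in lithium plus MDI minus lithium (-0.039) and miR-146b in lithium minus preadipocytes (-0.10) and lithium plus MDI minus MDI (-0.11). The miR-155 interaction passed with the mean of all probes (1.86) and, chosen after seeing the data, the dimmer probe (1.79), and its MDI minus preadipocytes with the authors' table (-1.06). Slide as a block turned miR-146b in lithium minus preadipocytes (-0.74), lithium plus MDI minus MDI (-0.38, also on slide 2 alone) and the interaction (0.36), and miR-146a in lithium plus MDI minus MDI (0.18, also on slide 2 alone). Quantile normalization turned miR-146a in lithium plus MDI minus lithium (-0.045) and miR-146b in lithium plus MDI minus MDI (-0.15). In the last comparison normexp gave 0.00427 for miR-146a and -0.00973 for miR-146b, and the authors' table -0.025 for miR-146b.

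Without the 3 arrays that stood apart, also chosen after seeing the data, further comparisons passed. Picking arrays for low agreement with their group narrows the spread, so these calls are no support. For miR-155 they were MDI minus preadipocytes (-1.51), lithium plus MDI minus lithium (1.07) and the interaction (2.58). For miR-146a, tested through preadipocytes alone, they were MDI (-1.38), lithium (-1.91) and lithium plus MDI (-1.46) minus preadipocytes and the interaction (1.83). For miR-146b they were lithium minus preadipocytes (2.35), lithium plus MDI minus lithium (-3.29) and the interaction (-2.95). Its lithium plus MDI minus MDI turned to -0.60. With 1 array left out at a time, the ranges for miR-155 were -1.51 to -0.69 in MDI minus preadipocytes, -1.89 to -1.07 in lithium minus preadipocytes, -0.99 to -0.17 in lithium plus MDI minus preadipocytes, 0.72 to 1.11 in lithium plus MDI minus lithium and 1.59 to 2.41 in the interaction. Those for miR-146a were -1.38 to -0.30 in MDI minus preadipocytes, -1.38 to -0.30 in lithium plus MDI minus preadipocytes, -1.56 to -0.48 in lithium minus preadipocytes, -0.24 to 0.18 in lithium plus MDI minus MDI and 0.48 to 1.56 in the interaction. Those for miR-146b were -1.57 to -0.34 in MDI, 0.33 to 1.60 in lithium and -1.69 to -0.21 in lithium plus MDI minus preadipocytes, -2.57 to -1.15 in lithium plus MDI minus lithium, -0.60 to 0.74 in lithium plus MDI minus MDI and -1.47 to -0.06 in the interaction. The number of tested microRNAs past the threshold ran, over all alternatives, from 0 to 62 in MDI minus preadipocytes (5 as reported), 0 to 83 in lithium minus preadipocytes (10), 0 to 44 in lithium plus MDI minus preadipocytes (2), 0 to 88 in lithium plus MDI minus lithium (0), and 0 to 69 in the interaction (0), and was 0 throughout in lithium plus MDI minus MDI. The dimmer probe gave no value for miR-146a, which lay at the floor there and was not among the microRNAs detected on all 12 arrays. Of the miR-146a values 5 of 12 were not well above background.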
